A study of Chromochloris zofingiensis with 38 samples.

Results

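In the unicellular green alga Chromochloris zofingiensis, 95 of the 12459 genes in the deposited table stood low under TOR inhibition after 1 h and still after 24 h, with and without glucose. They were chosen by measured values. For each gene the ratio of mean levels was taken between AZD and S and between GA and Glu, on a log2 scale with 1 CPM (counts scaled to a common library total) added to both means, and the median of 11623 expressed genes was subtracted. A gene was kept where this centred ratio, called L here, was -1.5 or lower in both pairs at both times. All samples were wild-type cells, and the 10 groups were GA, AZD, Glu, S and None at 1 h and the same 5 at 24 h. AZD is the TOR inhibitor, Glu is added glucose and None is no addition. The labels spell out neither GA, which has the initials of both treatments, nor S, and both are called by their labels. There were 3 libraries in GA at 24 h and in AZD at 1 h and 4 in each of the other groups. No inhibitor or glucose dose is given in the sources used here, and the labels do not say whether replicates grew as separate cultures. The p-values below then cover the spread of these libraries alone, which may be technical. In RNA from a whole culture, fewer cells with a transcript and less of it per cell cannot be told apart.

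TOR (target of rapamycin) is a conserved protein kinase that couples growth to nutrients and energy. In green algae, as in yeast, plants and animals, active TOR favours protein synthesis and the making of ribosomes and holds back autophagy and other recycling of cell material. Chromochloris zofingiensis can grow by photosynthesis or on added glucose, and it is known for switching its photosynthetic machinery off in glucose and for storing lipids and the red ketocarotenoid astaxanthin. The gene IDs come without names or products in the files, so no member could be given a function and no pathway list could be counted. For this reason at most 2 IDs per direction are named in each comparison.

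Library totals ran from 12414643 to 106150532 counts with a median of 30446857. At 1 h, S replicate 1 and Glu replicate 4 lay farthest from the other libraries of their groups, at a root mean square distance of 0.61 and 0.55 in log2(CPM + 1), against at most 0.44 in the other 36. The number of members and several counts of calls are given with and without them. Medians of L, correlations and shares of counts are given with all libraries only. Without both libraries the rule kept 105 genes, 90 of them among the 95. Levels below are CPM on libraries scaled with edgeR's TMM factors, under which the typical gene shows no difference, and means are given ± SD. Samples of the 2 times carry different title prefixes, and no level at 1 h was tested against one at 24 h.

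The limit of -1.5 is a fall of somewhat under 3-fold relative to the middle of the genes, and most members lay well below it. The values in this paragraph chose the members and carry no test. L had a median of -2.57 in AZD against S at 1 h and -2.36 in GA against Glu at 1 h, with the lowest members at -5.26 and -5.35. At 24 h the median was -2.04 in AZD against S and -3.19 in GA against Glu, with the lowest at -6.00 and -9.64. The shallowest of the 4 sets was therefore AZD against S at 24 h and the deepest GA against Glu at 24 h, which held the lowest of the 4 values for 58 members. Among all genes, 5.75% were past the limit in AZD against S at 1 h, 5.64% in GA against Glu at 1 h, 11.8% in AZD against S at 24 h and 13.2% in GA against Glu at 24 h. Both limits at 1 h were met by 515 genes, both at 24 h by 766, and all 4 by the 95. The limit most often missed by genes that met the other 3 was AZD against S at 24 h, with 154 such genes, while GA against Glu at 24 h alone left out 3. The members nearest to a limit had -1.507 and -1.509, both in GA against Glu at 1 h, and the nearest genes outside had -1.498 each, in AZD against S at 1 h for one and at 24 h for the other.

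**Figure D1:**
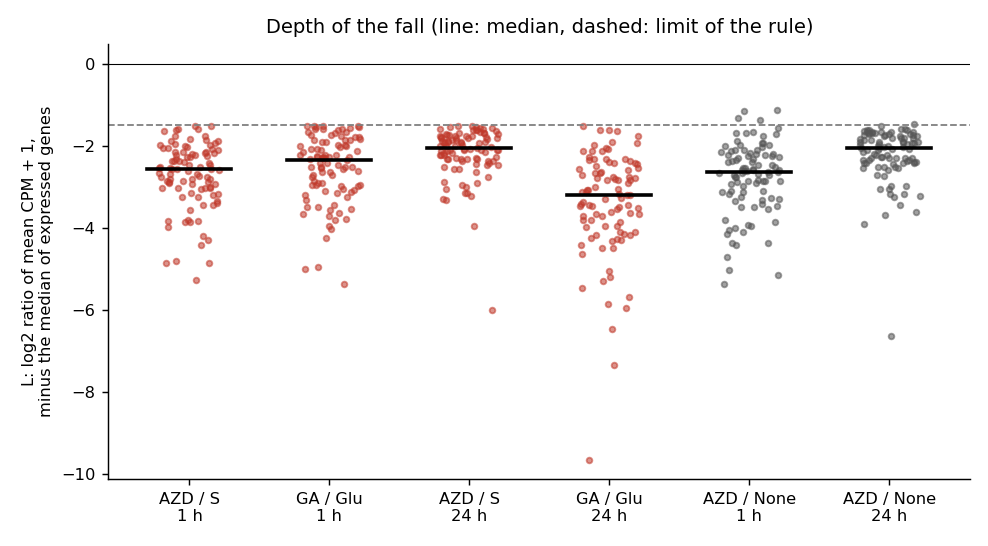
L of the 95 genes (vertical axis, log2 ratio of mean CPM + 1 minus the median of expressed genes) in the 4 pairs that chose them (red) and in AZD against None (grey), 1 point per gene, with black lines at the medians and a dashed line at the limit of -1.5. The points reach lowest in GA against Glu at 24 h (-9.64), and 5 points of AZD against None lie above the limit.

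The GA and AZD libraries hardly met those of Glu and S. Every AZD library lay below every S library for all 95 members at both times, and every GA library below every Glu library for 94 at 1 h and 95 at 24 h. Over all 12459 genes this held for 23% in AZD against S at 1 h, 21.1% in GA against Glu at 1 h and 34.9% in each pair at 24 h. The rule required low ratios in these very pairs, so the separation follows largely from the choice and is no finding. The exception was Cz05g35210 at 1 h, whose highest GA library had 23.7 CPM and whose lowest Glu library, replicate 4, had 22.3 CPM. It is named for this after its values were seen. All AZD libraries stayed under 1 CPM for 5 members at 1 h and for 0 at 24 h, and all GA libraries for 5 at 1 h and 3 at 24 h.

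**Figure D2:**
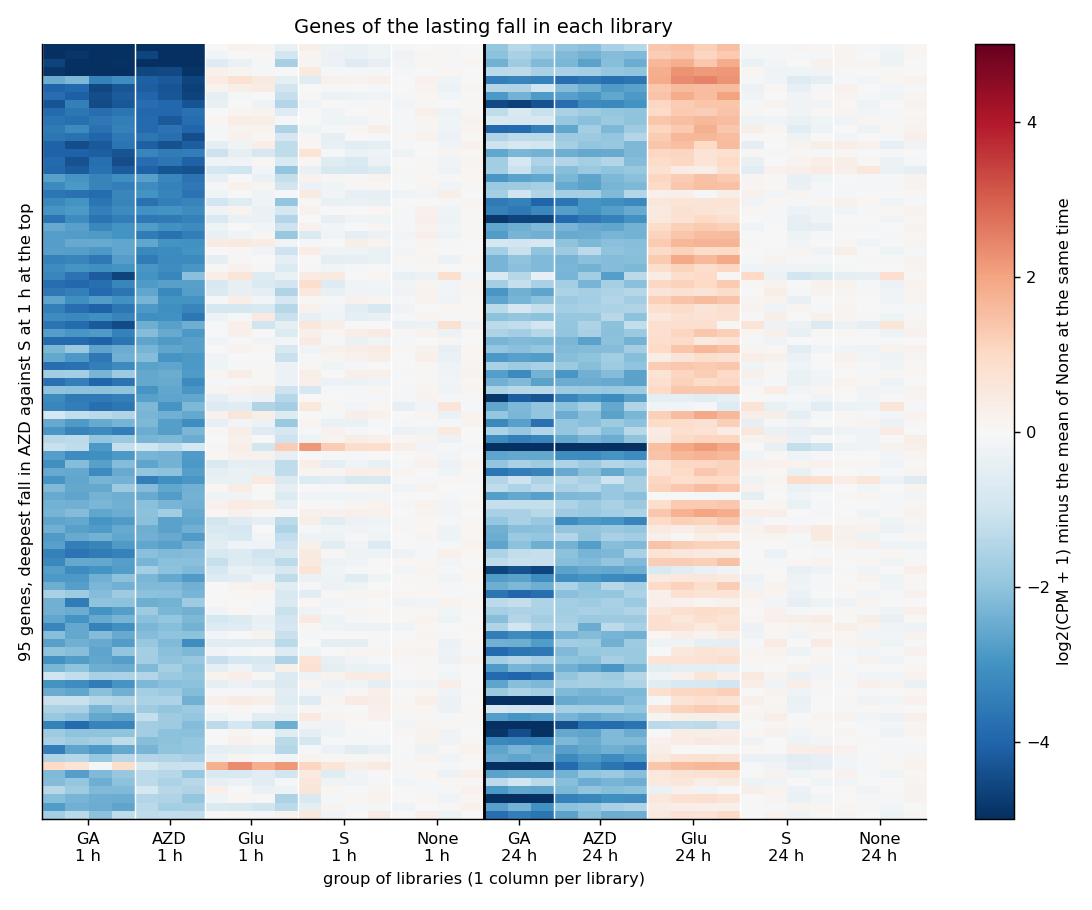
log2(CPM + 1) of the 95 genes (rows, ordered by L in AZD against S at 1 h) in 38 libraries (columns, grouped by treatment, 1 h left of the black line and 24 h right of it), as the difference from the mean of None at the same time. GA and AZD columns are mostly blue at both times, S and None columns are pale, and Glu columns at 24 h are red for most rows.

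At 1 h the lowest L among members with at least 10 CPM in the group set against it was that of Cz06g06120 in AZD against S. It had 0.974, 0.685 and 1.39 CPM in AZD, against 101, 68.8, 65.1 and 70.1 CPM in S (L -5.26). The groups lay far apart, and S replicate 1 was the highest library. Cz05g27150 had 3.69, 2.47 and 1.75 CPM in AZD and 123, 90.7, 89.0 and 96.0 CPM in S (L -4.86). In GA it had 0.895, 2.87, 1.66 and 1.73 CPM, against 101, 115, 115 and 59.4 CPM in Glu (L -4.997). It thus stood about equally low in both pairs, and Glu replicate 4 was the lowest of its group. Cz10g07040 had 1.95, 0, 1.26 and 0 CPM in GA at 1 h, against 99.4, 93.9, 80.9 and 85.2 CPM in Glu (L -5.35). A count of 0 in GA replicates 2 and 4 allows up to 0.191 and 0.0998 CPM (3 counts per library, counting error only).

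The lowest members by the same criterion at 24 h were others than at 1 h. Cz03g17150 had 0.142, 0.265 and 0.0590 CPM in GA at 24 h, against 708, 948, 1076 and 926 CPM in Glu (L -9.64). The GA values rest on 6.00, 10.02 and 3.00 estimated counts, and with 1 CPM added to each mean L is smaller in size than the ratio of the levels themselves. In AZD at 24 h it had 0.996, 3.46, 0.929 and 1.08 CPM, against 254, 193, 107 and 122 CPM in S (L -6.00), so AZD replicate 2 held more than the other 3. The fall of Cz03g17150 at 1 h was shallower, with L at -2.56 in AZD against S and -1.86 in GA against Glu. Cz04g14250 had 14.2, 15.9 and 16.1 CPM in GA at 24 h, against 2233, 2497, 2709.7 and 2608 CPM in Glu (L -7.34). Cz05g25180 had 3.64, 6.11, 5.82 and 6.63 CPM in AZD at 24 h, against 96.6, 106.3, 101 and 104 CPM in S (L -3.94). The groups lay far apart.

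Depth at 1 h said little about depth at 24 h within the range the rule left. Of the 29 members at or under -3 in AZD against S at 1 h and the 8 at 24 h, 4 were in both, and in GA against Glu 15 were in both, of 24 at 1 h and 54 at 24 h. Across the 95 members, L in AZD against S at 1 h and at 24 h had r = -0.06 (Spearman's rho -0.10), and L in GA against Glu at the 2 times had r = -0.13 (rho -0.13). At each time, by contrast, the 2 pairs ranked the members alike, with r = 0.85 (rho 0.80) between AZD against S and GA against Glu at 1 h and r = 0.75 (rho 0.58) at 24 h. Over the 11623 expressed genes the same 4 correlations were 0.30, 0.39, 0.89 and 0.68 (r). These are descriptions across genes of pairs that share no library, genes are not independent replicates, and the limits of the rule cut the members' range.

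None libraries took no part in the pairs of the rule, and AZD was set against them as a further description. In AZD against None, 91 of the 95 were at or under -1.5 at 1 h (5.95% of all genes were) and 94 at 24 h (12.8%), with medians of -2.63 and -2.06. Every AZD library lay below every None library for all 95 at both times (26.6% of all genes at 1 h and 36% at 24 h). In GA against None, 93 were at or under the limit at 1 h (8.15% of all genes) and 70 at 24 h (15.9%), with medians of -2.78 and -2.24. Every GA library lay below every None library for 94 at 1 h (27.3% of all genes) and 94 at 24 h (38.4%). GA and AZD libraries chose the members, so these counts carry no test. One member stood the other way. Cz04g14250 at 1 h had 289, 231, 135 and 269 CPM in GA, against 499, 759, 518 and 655 CPM in Glu and 151, 146, 136 and 147 CPM in None. It met the limit because its Glu libraries stood high, while 3 of its 4 GA libraries lay above every None library.

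Summed over the 95 genes, GA and AZD held the smallest shares of counts at both times. The rule chose genes low in these groups, so this follows largely from the choice and is no finding. At 1 h the 95 genes held 0.115, 0.105, 0.0889 and 0.113% of the library in GA and 0.181, 0.172 and 0.156% in AZD. The Glu libraries at 1 h held 0.760, 0.927, 0.936 and 0.441%, those of S 1.01, 0.941, 0.950 and 1.01%, and those of None 1.07, 1.17, 1.02 and 1.17%. The lowest Glu value at 1 h was replicate 4, which stood apart in the whole transcriptome too. At 24 h GA held 0.105, 0.134 and 0.119%, AZD 0.211, 0.205, 0.236 and 0.232%, and Glu 2.70, 2.87, 2.78 and 2.95%. S held 1.499, 1.71, 1.51 and 1.605% and None 1.70, 1.61, 1.49 and 1.72%. Glu thus lay above None in every library at 24 h and below it in every library at 1 h, and GA was lowest at both times. In GA against None at 24 h, 70 of the 95 were at or under -1.5, and the rest entered through high Glu libraries. The Glu share at 24 h therefore follows in part from the choice too. Such shares are of raw totals, on which the median gene tested stood at -0.45 (log2) in Glu against None at 1 h and -0.29 at 24 h, and they are not scaled for gene length. The lower share in Glu at 1 h is therefore to be read against a shift of the same direction in the typical gene. Cz18g11010 held the most counts of the members, and without it the mean share at 24 h was 0.109% ± 0.0146 in GA (SD, n = 3), 0.150% ± 0.00752 in AZD (n = 4), 1.86% ± 0.0958 in Glu (n = 4), 0.896% ± 0.0344 in S (n = 4) and 0.933% ± 0.0473 in None (n = 4).

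**Figure D3:**
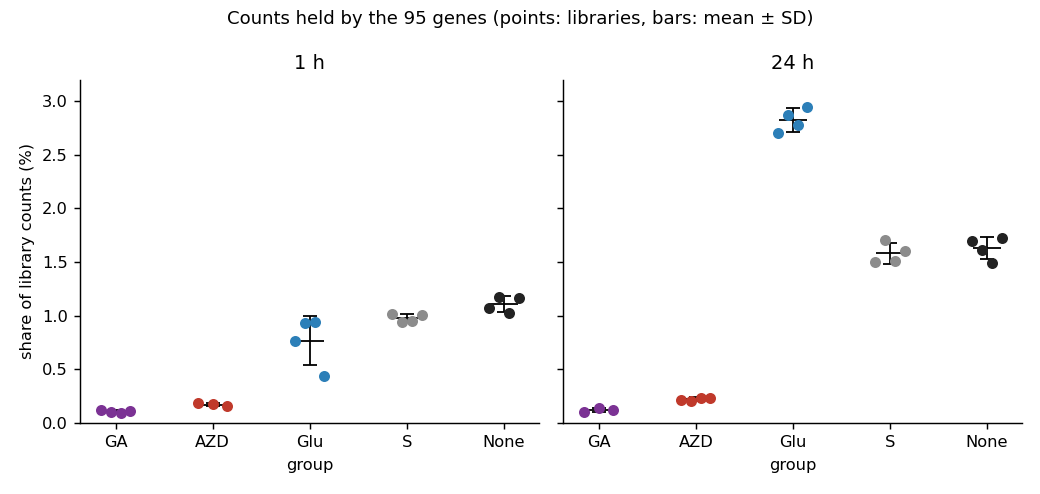
Share of each library's counts held by the 95 genes (vertical axis, percent), at 1 h on the left and 24 h on the right, with a point per library and the mean ± SD of each group. Glu at 24 h sits between 2.70 and 2.95%, above every other group, and GA and AZD stay under 0.24% at both times. The low values in GA and AZD follow largely from the choice of the genes.

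Whether the members respond to glucose itself was asked by Glu against None, whose direction the rule does not set, although Glu libraries were the compared group in 2 of its 4 limits. After 1 h the members called mostly stood lower. By edgeR's quasi-likelihood test on all 12142 genes that passed its filter on low counts, which all 95 members passed, 28 fell and 1 rose at an adjusted p under 0.05 (13.6% of all genes fell and 17.5% rose). The median log2 fold change was -0.23 over the members and 0.01 over all genes tested. Of the 28, 5 fell at least 2-fold, as did 303 of all 12142 genes tested. Without Glu replicate 4, 21 fell and 3 rose, and without both libraries that stood apart 22 fell and 4 rose, with a median of -0.09. Scaled by library totals, which moves the median of all genes to -0.45, 81 fell and 1 rose.

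The member that rose at 1 h was Cz04g14250, with 608 ± 122 CPM in Glu and 145 ± 6.55 CPM in None (SD, n = 4 each). Its place among the 95 depended on its high Glu libraries, so this is a description with no test. Fold changes below are given ± an approximate SE. The largest falls were those of Cz05g25180 and Cz01g21160. Cz05g25180 had 10.6, 14.6, 10.2 and 4.31 CPM in Glu at 1 h, against 25.4, 30.8, 29.0 and 26.6 CPM in None, a log2 fold change of -1.502 ± 0.21 that became -1.24 without both libraries that stood apart. Cz01g21160 had 8.06, 9.91, 10.5 and 6.04 CPM in Glu, against 15.3 to 21.8 CPM in None (log2 fold change -1.18 ± 0.18, and -1.03 without both). In both genes every Glu library lay below every None library, which naming required, and replicate 4 was the lowest. Their adjusted p-values were 6.70e-07 and 2.97e-06 (edgeR with Benjamini-Hochberg adjustment).

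After 24 h most members stood higher in glucose. Of the 95, 73 rose and 5 fell (32.8% of all genes rose and 36% fell). The risen made up 76.8% of the members. Of them 43 rose at least 2-fold, as did 1630 of all 12142 genes tested. The median log2 fold change was 0.90 over the members and -0.06 over all genes tested. Scaled by library totals, 59 rose and 6 fell, with the median of all genes at -0.29. Glu libraries at 24 h also entered the rule, through GA against Glu at 24 h. In GA against None at 24 h, 70 of the 95 were at or under -1.5. The rest met the limit only against Glu, whose libraries stood higher, so called rises among them follow in part from the choice. The other 3 limits, which use no Glu library of 24 h, were met by 98 genes, of which 74 rose and 5 fell, a median of 0.89. Genes past both limits on AZD against S, in whose choice neither Glu nor GA took part, numbered 152, of which 96 rose and 16 fell, a median of 0.71. The 152 include the 95, and of the other 57 genes 23 rose (40.4%) and 11 fell (19.3%), a median of 0.37, nearer to the background than the members were. Both lists were chosen after seeing the data.

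Cz08g09080 and Cz10g07040 had the largest rises. Cz08g09080 had 3107, 4406, 4781 and 4138 CPM in Glu at 24 h, against 799, 784, 917 and 964 CPM in None, a log2 fold change of 2.25 ± 0.23. Cz10g07040 had 165, 221, 205 and 208 CPM in Glu, against 44.6, 46.3, 47.7 and 45.4 CPM in None (log2 fold change 2.12 ± 0.30). The adjusted p-value of Cz08g09080 was 1.46e-10 (edgeR with Benjamini-Hochberg adjustment). Cz10g07040 had L of -1.39 in GA against None at 24 h, above the limit of -1.5. Its place among the members depended on its high Glu libraries at 24 h, so its rise is a description with no test. In both Cz08g09080 and Cz10g07040 the Glu libraries lay above all None libraries, which naming required. Both were among the 7 members with L at or under -4 in AZD against S at 1 h, at -4.41 and -4.80. Cz05g25180 and Cz13g00240 showed the largest of the 5 falls. Cz05g25180 had 41.3 ± 5.40 CPM in Glu and 97.6 ± 7.93 CPM in None (n = 4 each, log2 fold change -1.24 ± 0.20, adjusted p = 1.79e-06). Cz13g00240 had 16.3 ± 1.55 CPM in Glu and 28.9 ± 5.24 CPM in None (n = 4 each, log2 fold change -0.83 ± 0.16, adjusted p = 3.43e-05, edgeR with Benjamini-Hochberg adjustment as before). The other 3 fell by 0.44 to 0.50 on the log2 scale. The 5 falls were 2 with DESeq2, 2 without None replicate 1 or without None replicate 4, and 3 without Glu replicate 1.

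**Figure D4:**
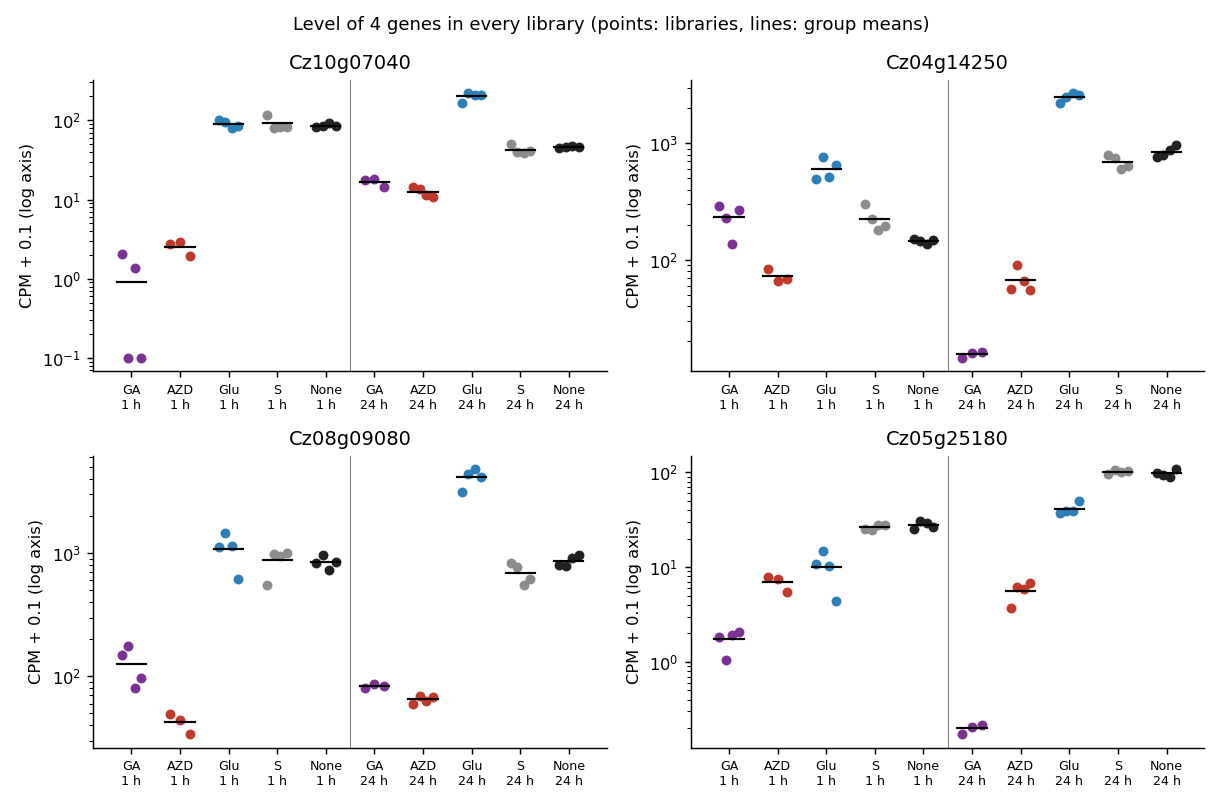
Level of Cz10g07040, Cz04g14250, Cz08g09080 and Cz05g25180 in every library (CPM + 0.1 on a log axis), with 1 h left of the grey line and 24 h right of it, a point per library and a line at each group mean. Cz05g25180 is the one of the 4 whose Glu libraries at 24 h lie below those of None, and Cz04g14250 the one whose GA mean at 1 h (231 CPM) lies above that of None (145 CPM).

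For 77 of the 95 the response to glucose was more positive at 24 h than at 1 h, and for 0 it was more negative (25.3% and 31.3% of all genes), by the test of the difference between the 2 responses in the same edgeR fit. The median difference was 1.30 over the members and -0.09 over all genes. At an unadjusted p under 0.05 the difference passed for 79 members, and DESeq2 called 82 more positive and 0 more negative. Without S replicate 1 and Glu replicate 4 of 1 h, 74 were more positive and 0 more negative. Members that met the rule through high Glu libraries at 24 h are included in these counts. Time and title prefix cannot be told apart here. Of the 28 members that fell at 1 h, 18 rose at 24 h, 4 fell again and 6 were not called. The same shares among all genes that fell at 1 h were not computed. The values of AZD at 1 h and of glucose at 24 h were also set side by side. L in AZD against S at 1 h and L in Glu against None at 24 h, which share no library, had r = -0.55 (rho -0.56) across the 95 members, against r = -0.26 (rho -0.34) across the 11623 expressed genes. With L in AZD against S at 24 h in its place the members had r = -0.03, against 0.50 across the expressed genes, so the relation was seen for the 1 h values and not for those of 24 h. The 31 members lowest in AZD at 1 h had a median L of 1.29 in Glu against None at 24 h, with a range of 0.23 to 2.26, and the 31 least low had a median of 0.50, with a range of -1.20 to 1.58. Both measures involve groups that entered the rule, and these values carry no test.

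**Figure D5:**
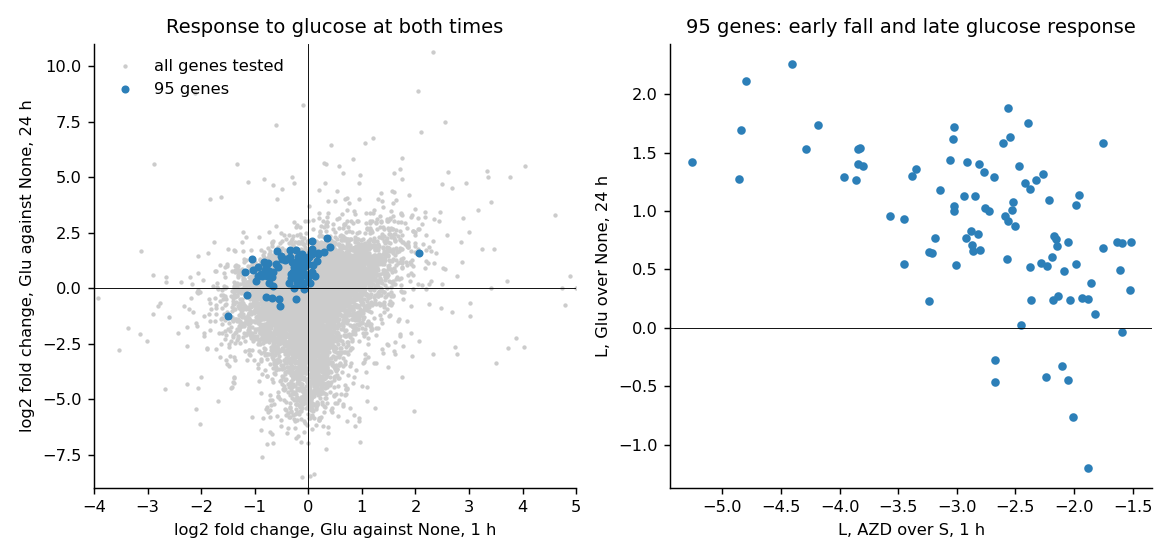
Left, log2 fold change in Glu against None at 24 h (vertical) against that at 1 h (horizontal) for the 12142 genes tested (grey) and the 95 members (blue); right, L in Glu over None at 24 h against L in AZD over S at 1 h for the members. The blue points sit mostly above 0 at 24 h (median 0.90), and on the right they descend from upper left to lower right (rho -0.56).

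GA against AZD compared the 2 treated groups with each other, both of which entered the rule. The rule set no direction between them but required low values in both. This choice limits what the counts here and the p-values of the named members below can show. After 1 h, 35 members fell and 8 rose in GA relative to AZD (17.5% and 22.2% of all genes), and after 24 h 32 fell and 17 rose (23.1% and 23.3%). The median log2 fold change was -0.19 at 1 h and 0.05 at 24 h over the members. At 1 h, 13 rose without S replicate 1 and Glu replicate 4, which enter the shared estimate of spread and the scaling. The 24 h median changed sign to -0.22 with library totals, to -0.01 without AZD replicate 2 and to -0.07 without GA replicate 3. With library totals, which set the median of all genes to -0.48 at 1 h and -0.25 at 24 h, 53 fell and 5 rose at 1 h and 36 fell and 10 rose at 24 h. Of the 73 members that rose in Glu at 24 h, 16 rose in GA relative to AZD at 24 h, 19 fell and 38 were not called. The rule required GA to lie well below Glu at 24 h, so these counts follow in part from the choice. The same counts over all genes were not made, and no conclusion is drawn from them. Whether the responses differ was not tested, because their difference is made of the pairs that chose the members. Its value was described instead. L in GA against Glu was lower than L in AZD against S for 89 of 95 members at 24 h, with a median difference of -1.11, and for 34 of 95 at 1 h, with a median of 0.17. The shares over all genes were not computed and both terms chose the members, so no trait of the members is read from these counts.

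Among the named members Cz04g14250 and Cz08g09080 rose most in GA relative to AZD at 1 h. Cz04g14250 had 231 ± 68.3 CPM in GA (n = 4) and 72.6 ± 8.85 CPM in AZD (n = 3), a log2 fold change of 1.67 ± 0.21. Cz08g09080 had 125 ± 44.7 CPM in GA and 42.4 ± 7.88 CPM in AZD (log2 fold change 1.56 ± 0.25). Cz08g22130 fell to 8.18 ± 1.01 CPM in GA, against 19.2 ± 1.18 CPM in AZD (log2 fold change -1.23 ± 0.14), and Cz07g02170 to 6.46 ± 0.847 CPM in GA, against 14.1 ± 2.16 CPM in AZD (-1.13 ± 0.17). The place of Cz04g14250 among the members depended on its high Glu libraries at 1 h, so its rise is a description with no test. Adjusted p-values of Cz08g09080, Cz08g22130 and Cz07g02170 were 6.26e-06, 2.32e-08 and 3.95e-06 (edgeR with Benjamini-Hochberg adjustment). Lack of overlap between GA and AZD libraries was a condition for naming these 4.

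At 24 h Cz14g22090 had 22.8, 28.8 and 23.8 CPM in GA, against 9.56, 11.5, 10.8 and 8.13 CPM in AZD (log2 fold change 1.34 ± 0.18). Cz07g20080 had 23.2, 21.9 and 23.8 CPM in GA, against 9.98, 8.35, 9.36 and 9.19 CPM in AZD (1.31 ± 0.13). Both were still under their Glu libraries at 24 h, the lowest of which had 183 and 110.2 CPM. In the other direction, Cz11g03060 had 2.09, 2.62 and 2.87 CPM in GA, against 23.9, 25.6, 25.4 and 30.8 CPM in AZD (log2 fold change -3.38 ± 0.28). Cz18g11010 had 97.5, 87.6 and 153 CPM in GA, against 542, 591, 687 and 661 CPM in AZD (-2.46 ± 0.27). Adjusted p-values of Cz14g22090, Cz11g03060 and Cz18g11010 were 1.34e-07, 2.87e-12 and 1.88e-09 (edgeR with Benjamini-Hochberg adjustment). Lack of overlap between the GA and AZD libraries was a condition for naming all 4.

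S against None gave 0 called members at either time by edgeR, where 0.0577% of all genes rose and 0.00824% fell at 1 h and 0.404% rose and 0.552% fell at 24 h. At an unadjusted p under 0.05, 4 of the 95 members passed at 1 h and 2 at 24 h, both less than the share of 0.05 that chance gives. DESeq2 called 1 higher at 1 h and 1 lower at 24 h. The median log2 fold change over the members was -0.04 at 1 h and -0.03 at 24 h. The largest difference was 1.42 in Cz03g17150 at 1 h, with 127, 68.7, 51.6 and 51.5 CPM in S and 24.9 to 34.0 CPM in None. It was not called, and it is named after its values were seen. Its L in AZD against None at 1 h was -1.15, above the limit of -1.5. Its place among the members depended on its high S libraries at 1 h, so this difference is a description with no test. S replicate 1 was the highest library, and all 4 S libraries lay above all None libraries.

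The members were spread over the table. By the prefix of their IDs they fell under 19 of the 20 prefixes, with up to 10 members each in Cz05 and Cz07 and 0 in Cz15, where 433 genes are listed. In 1 case members were neighbours in the order of the table, and 4 pairs lay within 5 rows of each other. Replicates spread most in Glu at 1 h, the group with replicate 4. The median coefficient of variation over the 95 members was 21.4% in GA, 18.9% in AZD, 27.0% in Glu, 16.1% in S and 10.7% in None at 1 h, and 14.6%, 14.4%, 11.1%, 12.4% and 11.03% in the same groups at 24 h. Median levels of the members were 3.86 CPM in GA, 5.61 CPM in AZD, 35.7 CPM in Glu, 44.6 CPM in S and 42.8 CPM in None at 1 h, and 9.27 CPM in GA, 10.1 CPM in AZD, 95.9 CPM in Glu, 42.7 CPM in S and 46.0 CPM in None at 24 h.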

How the data were processed

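Poly(A)-selected RNA of cell pellets was sequenced in read pairs and trimmed with BBDUK, per the labels' protocols. Salmon and DESeq2 1.46.0 stand in the submitters' processing notes with no role given. Build, annotation and strandedness were each not given in the sources used here. Deposited values are the authors' estimated counts per gene, unscaled for depth, for 12459 genes, 48 of them with no count. Near-identical or overlapping genes may share counts, which was not checked. L uses CPM from column totals. For tests the counts were rounded and fitted in edgeR 4.0.16 under R 4.3.3 (filterByExpr, min.count 10, min.total.count 15; 12142 genes; TMM; 1 mean per group over 38 libraries; 28 residual degrees of freedom), and a call is a Benjamini-Hochberg adjusted p under 0.05 over those genes. SE is the log2 fold change over the root of F, an approximation. The procedure was tested on simulated data. Each of 54 replicate pairs differed beyond sampling noise (chi-square per degree 7.39 to 410). Floors cover counting error only. Named genes are, per pair of the rule, the 2 members of lowest L with at least 10 CPM in the group set against it and, per test, up to 2 called rises and 2 called falls without overlap of the groups and with at least 10 CPM in the higher one. Alternatives were DESeq2 1.42.0, its size factors, library totals, no filter, fits of the compared groups alone, a replicate block and left-out libraries. The members and lists were chosen with earlier results of these data known.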

Additional observations from a re-analysis of the deposited data

Results flagged for a closer look

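In 128 groups of 4 libraries a library far from the other 3 was looked for. It was found in 7, all of them in named genes. Chance gives about 1 in 20 groups, and 7 of 128 is near that share. Many of the groups hold the same libraries and are not independent, and whether the 7 arose by chance was not tested. The 7 are listed for their values only. S replicate 1 at 1 h accounted for 3 of them. It had 101 CPM of Cz06g06120 against 65.1 to 70.1 CPM in the other S libraries, 118 CPM of Cz10g07040 against 80.6 to 82.8 CPM, and 553 CPM of Cz08g09080 against 950.4 to 994 CPM. Cz03g17150 stood out in GA replicate 3 at 1 h, with 2.92 CPM against 10.8 to 12.2 CPM, and in AZD replicate 2 at 24 h, with 3.46 CPM against 0.929 to 1.08 CPM. AZD replicate 2 at 24 h had 13.9 CPM of Cz05g27150 against 15.6 to 15.8 CPM, and Glu replicate 4 at 24 h had 49.3 CPM of Cz05g25180 against 37.5 to 39.4 CPM.

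The response to glucose differed between the times for 77 members, each more positive at 24 h, and for 0 in the other direction, by the edgeR test of that difference (Benjamini-Hochberg). Of all genes, 25.3% were more positive and 31.3% more negative. In GA against None at 24 h, 70 of the 95 were at or under -1.5. The rest met the rule through high Glu libraries at 24 h and are included, so the counts follow in part from the choice. Among the named genes Cz10g07040 had a log2 fold change of 2.12 at 24 h and 0.07 at 1 h, a difference of 2.05. Its place among the members depended on its high Glu libraries at 24 h, so this difference is a description with no test. Cz01g21160 had 0.73 at 24 h and -1.18 at 1 h, a difference of 1.91 (adjusted p = 5.70e-08). Cz08g09080 had 2.25 and 0.35, a difference of 1.90 (adjusted p = 3.71e-06, edgeR for Cz01g21160 and Cz08g09080). Time and title prefix cannot be told apart.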

How the results depend on the processing

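Members called higher in Glu at 24 h numbered 73 as reported and 59 to 80 for these 95 under the other fits, 70 to 79 when 1 library was left out. Members called lower there, 5 as reported, were 2 with DESeq2 or its size factors, 3 with no filter, 16 of the 152 genes chosen by AZD against S alone, 2 to 4 with 1 library left out (2 without None replicate 1 or 4, 3 without Glu replicate 1) and 5 without S replicate 1 and Glu replicate 4 of 1 h. In Glu against None at 1 h, 28 were lower and 1 higher. Library totals gave 81 lower, the 152 genes 47 lower and 8 higher, both left-out libraries 4 higher, and single libraries left out 21 to 32 lower and 1 to 3 higher. In GA against AZD at 1 h, 8 were higher and 35 lower. Library totals gave 5 and 53, both left-out libraries 13 higher, and single libraries 7 to 10 and 28 to 35. At 24 h, 17 were higher, 10 with library totals. The median log2 fold change of 0.05 there became -0.22 with library totals and lay between -0.072 and 0.12 with 1 library left out. In S against None, 0 members became 1 higher at 1 h with DESeq2, 1 lower at 1 h when only the compared groups were fitted, and 1 lower at 24 h with DESeq2 or without both libraries, and 0 to 0 with 1 left out. The rule kept 182 genes with no median subtracted, 344 at a limit of -1, 27 at a limit of -2, 152 on AZD against S alone and 88 to 105 with 1 library left out. The cause was not tested for any of these. No call shared between settings changed sign. Same-numbered replicates had correlations from -0.54 to 0.50 and the numbers did not pair the samples; a replicate block gave 1 higher and 29 lower in Glu against None at 1 h, 73 and 5 at 24 h, 9 and 29 in GA against AZD at 1 h, 17 and 32 at 24 h, 0 and 0 in S against None, and 76 members with a more positive glucose response at 24 h. Values under 1 CPM rest on few counts, and folds of those genes are limited by depth.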
